A study of Homo sapiens with 18 samples.

Results

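The transcription factors that drive the epithelial to mesenchymal transition (EMT), and the factors that oppose them, were followed across the RNA-seq libraries. They were 10 genes chosen by name: SNAI1, SNAI2, TWIST1, TWIST2, ZEB1, ZEB2 and PRRX1, which drive EMT, and GRHL2, OVOL2 and ESRP1, which hold cells in the epithelial state. All 10 were among the 28277 genes counted. The cells were OVCAR3-KRAB, an ovarian cancer cell line that expresses dCas9-KRAB, a nuclease-dead Cas9 fused to a repressor domain, delivered by lentivirus and selected with blasticidin. Every group carries this repressor. The sgCtl cells carry a guide to the Gal4 promoter as a control, and the sgXIST7 and sgXIST9 cells each carry a guide to the promoter of XIST, the noncoding RNA that coats the inactive X chromosome. Each guide is represented by monoclonal cells. How many clones of each guide were sequenced is not stated, and the sample labels name none. A clone below means the cells of a guide, and an effect of a guide cannot be told apart from a property of its clone. Each clone was kept in normoxia or in 1% oxygen for 24 h, which gave 6 groups of 3 replicates and 18 libraries. The question was how the loss of XIST, and hypoxia on top of it, changed the expression of these regulators.

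SNAI1 and SNAI2 are zinc-finger repressors, ZEB1 and ZEB2 are zinc-finger and homeodomain repressors, TWIST1 and TWIST2 are basic helix-loop-helix factors, and PRRX1 is a homeodomain factor. The SNAI and ZEB proteins bind E-boxes, among them those in the promoter of CDH1, the gene of E-cadherin. OVOL2 and GRHL2 repress ZEB1 and keep junction genes on, and ESRP1 directs epithelial splicing. Micro-RNAs of the miR-200 family pair through their seed with ZEB1 and ZEB2 transcripts, and the ZEB proteins in turn repress the miR-200 genes. In carcinomas these factors are seldom all on or all off, and mixed epithelial and mesenchymal states are common.

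ZEB2 is on the minus strand of chromosome 2 (hg38, chr2:144384081-144520119), and in sgXIST9 it fell further against sgCtl than any other tested member. The 250 bases before its start, from RefSeq on GRCh38.p14 (chr2:144520120-144520369, minus strand), are given since ZEB2 also rose in hypoxia. Capitals mark the core of the hypoxia response element, ACGTG, here as its reverse CACGT.
ZEB2 promoter: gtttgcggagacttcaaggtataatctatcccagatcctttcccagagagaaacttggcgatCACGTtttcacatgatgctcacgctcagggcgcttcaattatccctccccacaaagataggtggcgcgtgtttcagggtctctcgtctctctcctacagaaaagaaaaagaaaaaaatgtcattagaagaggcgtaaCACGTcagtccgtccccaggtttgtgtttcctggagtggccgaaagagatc
The core was found 2 times, starting 188 and 51 bases before the start. Of 35116 promoter windows of the same length, 18.5% hold ACGTG or CACGT. The E-box CAGGTG or its reverse CACCTG, held by 17.5% of the windows, was not among these letters. The windows of PRRX1 and TWIST2 held neither motif. Of the 7 windows listed for ZEB1, 1 held the hypoxia core, 2 times as in the ZEB2 window, and 2 held the E-box. The table matched 4 of the 10 members. No entry was used for SNAI1, SNAI2, TWIST1, GRHL2, OVOL2 and ESRP1. A match is a description of letters, and binding was not measured.

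The mature miR-200 sequences from RefSeq are given because their precursors were among the genes counted, and capitals mark the seed, bases 2 to 8. The first 3 share the seed AAUACUG and the other two share AACACUG.
hsa-miR-200c-3p: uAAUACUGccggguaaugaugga
hsa-miR-200b-3p: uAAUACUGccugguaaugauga
hsa-miR-429: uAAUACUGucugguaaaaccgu
hsa-miR-141-3p: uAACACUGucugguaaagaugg
hsa-miR-200a-3p: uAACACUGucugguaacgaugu
The genes of miR-200b, miR-200a and miR-429 lie together on chromosome 1, and those of miR-200c and miR-141 lie together on chromosome 12. Total RNA libraries do not capture the mature forms, so only the longer transcripts below were measured.

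Total counts ranged from 11794375 to 24906936 per library. XIST ranged from 123.4 to 867.0 CPM (counts scaled to the TMM-adjusted library size) in the 6 sgCtl libraries, from 0 to 0.259 CPM in the 6 sgXIST7 libraries and from 16.27 to 53.6 CPM in the 6 sgXIST9 libraries, so that each knockdown (KD) library lay below each sgCtl library. A list of 12 genes known to be induced by hypoxia, picked after the files were seen, summed to between 291.4 and 609.4 CPM in normoxia and between 2608 and 4817 CPM in hypoxia. The hypoxia libraries of replicate 3 stood apart. Their correlation with the others of their group ranged from 0.953 to 0.984 over the genes tested, against 0.984 to 0.993 for all other pairs. In the sgCtl hypoxia library of replicate 3, SNAI2 and OVOL2 had 0 counts and SNAI1 had 46 counts, against 215 and 333 in the other two. Of 14 ovarian carcinoma markers, 5 were above 3 counts in every library, PAX8 (mean 2.57 CPM), EPCAM, KRT8, KRT18 and BCAM. WT1 was above 3 counts in 8 libraries and MSLN in 13, with means of 0.215 and 0.376 CPM. MUC16, KRT7, MECOM, SOX17, FOLR1, CDH6 and WFDC2 were above 3 counts in at most 1 library. The defining markers thus bear out the OVCAR3 label only in part. The summed level of these 14 ranged from 310.0 to 401 CPM in sgCtl and from 371 to 535 CPM in the KD clones. The 6 fibroblast markers summed to between 1.24 and 3.81 CPM in sgCtl and between 33.4 and 309.0 CPM in the KD clones, most of it COL1A2, and DCN, LUM and PDGFRA reached at most 30 counts. The summed leukocyte markers, nearly all CD68, ranged from 11.4 to 56.0 CPM with PTPRC and CD3E at 0 or 1 count, and the 4 endothelial markers summed to at most 0.684 CPM. The part of COL1A2 and the other markers in the results below was not tested.

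Of the 10 members, 8 passed the filter on low counts and were tested among 14938 genes. GRHL2 and ESRP1 did not pass. The filter asks for about 0.567 CPM, before TMM scaling, in 3 libraries. SNAI1, TWIST2 and ZEB1 reached it in all 18 libraries. PRRX1 reached it only in the sgXIST7 libraries, OVOL2 in all 12 KD libraries and 1 of sgCtl, and SNAI2 in all 12 KD libraries and 2 of sgCtl. ZEB2 and TWIST1 reached it in all 6 sgCtl libraries, in 6 and 4 of sgXIST7 and in no sgXIST9 library. These 5 were thus tested through the groups where they are high, so that the counts of called members below describe a selected set and support nothing by themselves. A member was called when its Benjamini-Hochberg adjusted p-value from edgeR was below 0.01 and it changed by more than 1 on the log2 scale. Per length, the most abundant member over all libraries was TWIST2 at 10.01 RPKM (CPM per kilobase of exon). ZEB1 followed at 3.37 RPKM, SNAI1 at 3.11 RPKM, SNAI2 at 1.61 RPKM, ZEB2 at 1.43 RPKM and TWIST1 at 1.34 RPKM. OVOL2 at 0.729 RPKM and PRRX1 at 0.150 RPKM were low. This order pools groups that differ. In sgCtl hypoxia SNAI1 at 6.67 RPKM, ZEB2 at 5.34 RPKM and TWIST1 at 4.0 RPKM were above ZEB1 at 3.46 RPKM, and in sgCtl normoxia ZEB2 was at 2.50 RPKM and SNAI2 at 0.134 RPKM. Within the tested genes, TWIST2 stood at percentile 62.8 and PRRX1 at percentile 4.34.

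**Figure D1:**
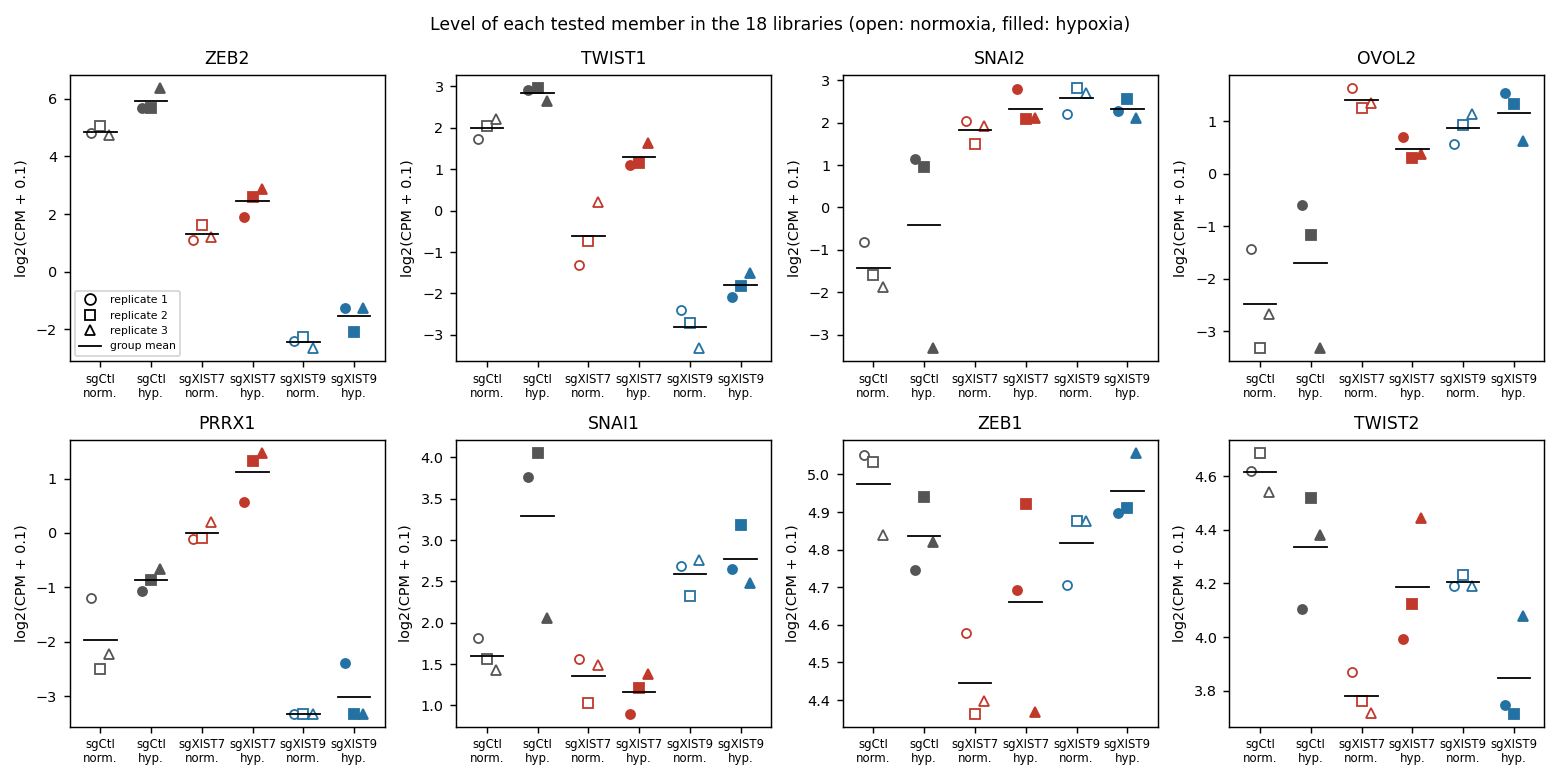
Levels of the 8 tested members in each library, on a log2 axis of CPM + 0.1, with 3 libraries per group (marker shape gives the replicate) and a line at the mean of the log2 values. ZEB2 and TWIST1 step down from sgCtl to sgXIST7 to sgXIST9, SNAI2 and OVOL2 step up in both KD clones, PRRX1 moves in opposite directions in the KD clones, and ZEB1 and TWIST2 span a narrow range.

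Among the ZEB repressors, ZEB2 fell in both KD clones while ZEB1 changed by less than 1 on the log2 scale. In bulk RNA, fewer expressing cells and less RNA per cell cannot be told apart. In sgCtl normoxia, ZEB2 was at 28.1, 32.9 and 26.5 CPM, and in sgCtl hypoxia at 51.6, 51.8 and 83.8 CPM. In sgXIST7 it was at 2.03, 3.0 and 2.18 CPM in normoxia and at 3.63, 5.89 and 7.17 CPM in hypoxia. In sgXIST9 it had 2, 2 and 1 counts in normoxia and 7, 3 and 5 counts in hypoxia. The 3 clones did not overlap in either oxygen condition, with sgCtl the highest and sgXIST9 the lowest. Against sgCtl in normoxia, the log2 fold change was -3.61 ± 0.26 (SE, n = 3 per group, adjusted p = 2.7e-08, edgeR) in sgXIST7. In sgXIST9 the summed counts were 5 against 1306, so that sgCtl was 337-fold higher with an exact 95% counting interval of 144 to 1040, and the adjusted p was 1.1e-10 by edgeR. In hypoxia the log2 fold changes were -3.50 ± 0.25 in sgXIST7 and -7.91 ± 0.35 in sgXIST9 (adjusted p = 1.9e-08 and 3.3e-11, edgeR).

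ZEB1 is on chromosome 10 (hg38, chr10:31318417-31529814, plus strand). Its group means were 31.4 ± 2.51 CPM (SD, n = 3) in sgCtl, 21.7 ± 1.78 CPM in sgXIST7 and 28.2 ± 1.90 CPM in sgXIST9 in normoxia. In hypoxia they were 28.5 ± 1.93, 25.5 ± 4.82 and 31.0 ± 1.93 CPM. The sgXIST7 libraries in normoxia, from 20.5 to 23.8 CPM, lay below all sgCtl libraries in normoxia, from 28.5 to 33.1 CPM. That difference was -0.53 ± 0.13 on the log2 scale (adjusted p = 0.0064, edgeR), past the p-value but not the fold threshold. In sgXIST9 the difference from sgCtl was -0.16 with a 95% confidence interval from -0.43 to 0.12 in normoxia, and 0.12 with an interval from -0.15 to 0.39 in hypoxia. Antisense genes lie next to the starts of ZEB1 and ZEB2, and whether the counting used strand is not given in the sources used here, so reads of such pairs cannot be told apart.

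The TWIST pair split in the same way, with TWIST1 falling and TWIST2 staying within a log2 fold change of 1. TWIST1 is on chromosome 7 (hg38, chr7:19113048-19117636, minus strand). It was at 3.22, 4.02 and 4.54 CPM in sgCtl normoxia and at 7.38, 7.74 and 6.11 CPM in sgCtl hypoxia. In sgXIST7 it was at 0.303, 0.500 and 1.05 CPM in normoxia and at 2.05, 2.13 and 3.02 CPM in hypoxia. In sgXIST9 there were 2, 1 and 0 counts in normoxia and 3, 4 and 4 counts in hypoxia. As for ZEB2, sgCtl was highest and sgXIST9 lowest, and no library of one clone reached those of another in the same oxygen condition. TWIST1 fell by 2.65 ± 0.37 in sgXIST7 on the log2 scale in normoxia (SE, adjusted p = 4e-05, edgeR) and by 1.58 ± 0.33 in hypoxia (adjusted p = 0.0011, edgeR). In sgXIST9 in normoxia, 3 counts stood against 179, and sgCtl was 76.9-fold higher with an exact 95% counting interval of 25.9 to 376 (adjusted p = 1.9e-07, edgeR). In hypoxia it fell by 5.21 ± 0.43 in sgXIST9 (adjusted p = 1.2e-07, edgeR).

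TWIST2, which shares the helix-loop-helix of TWIST1 but is encoded on chromosome 2 (hg38, chr2:238848085-238910534, plus strand), had 234 to 460 counts in every library. In normoxia the means were 24.5 ± 1.24 CPM in sgCtl, 13.7 ± 0.775 CPM in sgXIST7 and 18.3 ± 0.309 CPM in sgXIST9 (SD, n = 3), and the 3 clones did not overlap. The difference from sgCtl was -0.84 ± 0.14 in sgXIST7 on the log2 scale (SE, adjusted p = 0.00032, edgeR) and -0.41 ± 0.14 in sgXIST9 (adjusted p = 0.045, edgeR), neither past the fold threshold. In hypoxia the means were 20.2 ± 2.88, 18.3 ± 3.04 and 14.4 ± 2.10 CPM, and the sgCtl and sgXIST7 libraries overlapped.

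The SNAI genes moved apart, SNAI2 upward in both KD clones and SNAI1 with no common direction. SNAI2, known as Slug, is on chromosome 8 (hg38, chr8:48917598-48921429, minus strand). It had 7, 3 and 3 counts in sgCtl normoxia and 34, 37 and 0 counts in sgCtl hypoxia. In sgXIST7 it was at 4.02, 2.72 and 3.70 CPM in normoxia and at 6.88, 4.12 and 4.23 CPM in hypoxia. In sgXIST9 it was at 4.55, 7.01 and 6.36 CPM in normoxia and at 4.79, 5.76 and 4.23 CPM in hypoxia. All KD libraries were above all sgCtl libraries, which reached at most 2.13 CPM. In normoxia SNAI2 rose by 3.57 ± 0.66 in sgXIST7 and by 4.34 ± 0.65 in sgXIST9 on the log2 scale (SE, adjusted p = 0.00067 and 9.1e-05, edgeR). In hypoxia the rise was 1.86 ± 0.52 in sgXIST7 (adjusted p = 0.009, edgeR), a call lost in 20 of 28 alternatives, among them the omission of sgCtl hypoxia replicate 1 or 2 or of any sgXIST7 hypoxia library, with adjusted p-values up to 0.099. In sgXIST9 in hypoxia the difference was 1.82 ± 0.52 (adjusted p = 0.014, edgeR), which was not called. It was called with the replicate block (adjusted p = 0.0095, edgeR), by DESeq2 (adjusted p = 0.0013), and without sgCtl hypoxia replicate 3 (log2 fold change 1.32, adjusted p = 0.0033, edgeR).

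SNAI1, known as Snail, is on chromosome 20 (hg38, chr20:49982980-49988883, plus strand). It was at 3.42, 2.86 and 2.58 CPM in sgCtl normoxia and at 13.4, 16.5 and 4.08 CPM in sgCtl hypoxia. In sgXIST7 it was at 2.85, 1.94 and 2.70 CPM in normoxia and at 1.77, 2.22 and 2.50 CPM in hypoxia. In sgXIST9 it was at 6.34, 4.89 and 6.66 CPM in normoxia and at 6.20, 8.94 and 5.49 CPM in hypoxia. In normoxia sgXIST7 overlapped sgCtl, while the sgXIST9 libraries lay above sgCtl by 1.01 ± 0.37 on the log2 scale (SE, adjusted p = 0.06, edgeR). That difference was called without sgCtl hypoxia replicate 3 (1.01, adjusted p = 0.0035, edgeR), which enters through the shared estimate of the spread, and when only the groups compared were fitted (1.02, adjusted p = 0.00066, edgeR). In hypoxia SNAI1 was lower in sgXIST7 than in sgCtl by -2.41 ± 0.38 (adjusted p = 9.5e-05, edgeR), a call kept in all 28 alternatives. In sgXIST9 in hypoxia the difference was -0.73 with a 95% confidence interval from -1.46 to -0.0031 (adjusted p = 0.12, edgeR) and the libraries overlapped. Without sgCtl hypoxia replicate 3 it was -1.12 and called (adjusted p = 0.0011, edgeR).

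PRRX1, on chromosome 1 (hg38, chr1:170664131-170739421, plus strand), was low and went in opposite directions in the KD clones. It had 5, 1 and 2 counts in sgCtl normoxia and 6, 9 and 6 counts in sgCtl hypoxia. In sgXIST7 there were 19, 15 and 24 counts in normoxia and 29, 53 and 31 counts in hypoxia. In sgXIST9 there were 0 counts in all 3 normoxia libraries and 2, 0 and 0 counts in hypoxia. The sgXIST7 libraries were above all others and the sgXIST9 libraries below all of sgCtl, within each oxygen condition. PRRX1 rose in sgXIST7 by 2.31 ± 0.55 on the log2 scale in normoxia (SE, adjusted p = 0.0066, edgeR) and by 2.24 ± 0.46 in hypoxia (adjusted p = 0.0012, edgeR). The first call was lost when sgCtl normoxia replicate 2 or 3, any sgXIST7 normoxia library, or sgXIST7 hypoxia replicate 2 was left out, with adjusted p-values of 0.035, 0.046, 0.015, 0.015, 0.026 and 0.011 (edgeR). Against the limit of 3 counts per library, the sgXIST9 level in normoxia was at least 1.13-fold lower than in sgCtl (adjusted p = 0.013, edgeR, not called). In hypoxia, 2 counts in sgXIST9 stood against 21 in sgCtl, which was 13.2-fold higher with an exact 95% counting interval of 3.24 to 116 (adjusted p = 0.0031, edgeR). That call was lost without sgCtl hypoxia replicate 2 (adjusted p = 0.01, edgeR) or sgXIST9 hypoxia replicate 2 or 3 (0.014 and 0.011, edgeR), and without all 3 hypoxia libraries of replicate 3 (0.014, edgeR). With only these groups fitted, PRRX1 did not pass the filter and was not tested.

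Of the antagonists, OVOL2 rose in both KD clones and the other two stayed near the limit of detection. OVOL2 is on chromosome 20 (hg38, chr20:18024152-18059188, minus strand). It had 4, 0 and 1 counts in sgCtl normoxia and 9, 7 and 0 counts in sgCtl hypoxia. In sgXIST7 it was at 3.03, 2.28 and 2.44 CPM in normoxia and at 1.53, 1.13 and 1.21 CPM in hypoxia. In sgXIST9 it was at 1.38, 1.81 and 2.10 CPM in normoxia and at 2.83, 2.41 and 1.45 CPM in hypoxia. Every KD library lay above every sgCtl library, the highest of which was at 0.563 CPM. In normoxia OVOL2 rose by 4.47 ± 0.64 in sgXIST7 and by 3.91 ± 0.66 in sgXIST9 on the log2 scale (SE, adjusted p = 6e-05 and 0.00029, edgeR). In hypoxia it rose by 2.75 ± 0.54 in sgXIST9 (adjusted p = 9e-04, edgeR) and by 1.96 ± 0.56 in sgXIST7 (adjusted p = 0.0098, edgeR). The sgXIST9 hypoxia call was lost when only the groups compared were fitted (adjusted p = 0.034, edgeR). The sgXIST7 hypoxia call was lost in 17 of 28 alternatives, among them the omission of sgCtl hypoxia replicate 2 or 3 (adjusted p = 0.033 and 0.014, edgeR) or of sgXIST7 hypoxia replicate 1, 2 or 3 (0.029, 0.02 and 0.019, edgeR).

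GRHL2, on chromosome 8 (hg38, chr8:101492439-101669724, plus strand), had 4 counts in 1 library, sgCtl hypoxia replicate 2, and 0 in the other libraries. A count of 0 allows up to 3 counts, or 0.142 to 0.202 CPM as the mean of a group. ESRP1, on chromosome 8 (hg38, chr8:94641174-94707466, plus strand), had 47 counts over the 18 libraries, 18 of them in sgXIST9 hypoxia replicate 3, and was above 3 counts in 2 libraries. In sgCtl, ESRP1 had 11 counts in hypoxia against 2 in normoxia, a ratio of 5.25 with an exact 95% counting interval of 1.14 to 48.7. Of these 11 counts, 6 came from replicate 3, the library that stood apart, and the interval leaves out the spread between libraries. In sgXIST9 it had 20 against 5, a ratio of 3.9 with an interval of 1.42 to 13.3, and the single library of 18 counts made up most of it. Neither gene had enough counts for a test over libraries. CDH1, the classical target of the SNAI and ZEB repressors, had 7 counts in all 18 libraries together and at most 2 in one, and CDH2, the gene of N-cadherin, had 19. These cadherins were picked with their values known. CDH1 was near 0 in the KD clones as well as in sgCtl. In the KD clones ZEB2 and TWIST1 were lower than in sgCtl and SNAI2 was higher. ZEB1 and TWIST2 changed by less than 1 on the log2 scale. How CDH1 relates to these factors was not tested.

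Against sgCtl in normoxia, 5 of the 8 tested members were called in sgXIST7, SNAI2, PRRX1 and OVOL2 higher and TWIST1 and ZEB2 lower, where 7.76% of all tested genes were called. In sgXIST9, 4 were called, SNAI2 and OVOL2 higher and TWIST1 and ZEB2 lower, beside 7.7% of all genes. In hypoxia, 6 were called in sgXIST7, SNAI2, PRRX1 and OVOL2 higher and SNAI1, TWIST1 and ZEB2 lower, beside 14% of all genes. In sgXIST9, 4 were called, OVOL2 higher and TWIST1, ZEB2 and PRRX1 lower, beside 9.53% of all genes, and 2 when only the groups compared were fitted. These comparisons share the sgCtl libraries of each oxygen condition, so they are not independent of each other. The exact permutation test over 3 against 3 libraries gave p = 0.1 for each called difference, the smallest p it allows (two-sided).

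**Figure D2:**
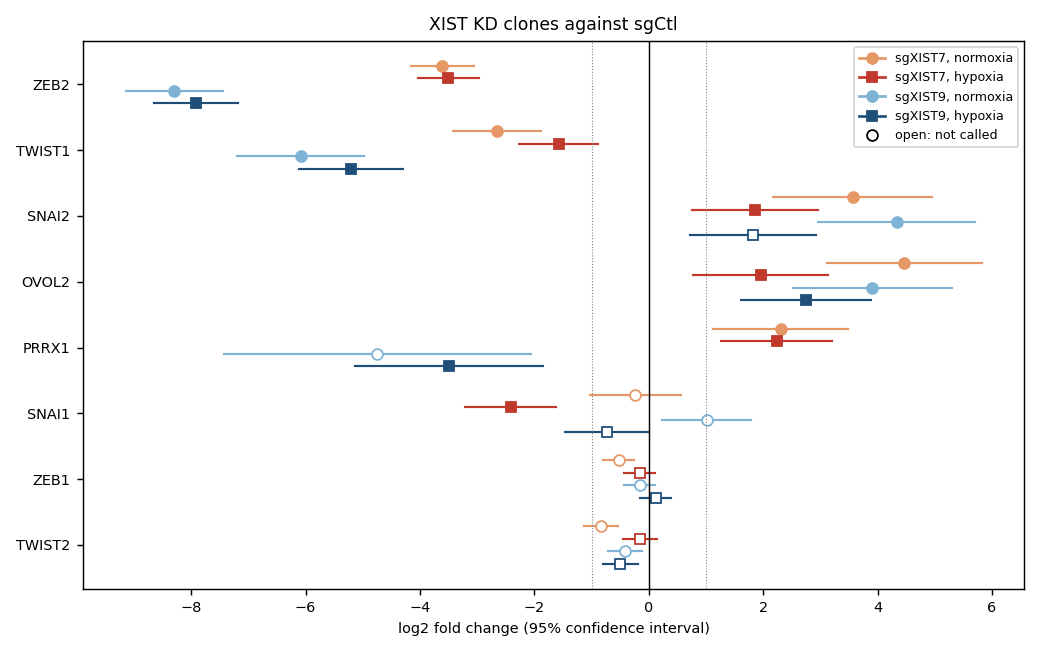
Log2 fold changes of the 8 tested members in each KD clone against sgCtl, with 95% confidence intervals from the edgeR fit (3 libraries per group). Filled symbols were called, and dotted lines mark -1 and 1. ZEB2 and TWIST1 lie to the left in all 4 comparisons and OVOL2 and SNAI2 to the right, while PRRX1 lies to the right in sgXIST7 and to the left in sgXIST9. Fitted values for groups with 0 counts depend on the prior count.

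The KD clones were next set against each other. In normoxia, 3 members were called, TWIST1, ZEB2 and PRRX1, all higher in sgXIST7 than in sgXIST9, beside 3.4% of all genes. Summed counts were 40 against 3 for TWIST1, a ratio of 12.1 with an exact 95% counting interval of 3.87 to 61.3, and 151 against 5 for ZEB2, a ratio of 27.5 with an interval of 11.5 to 85.9. PRRX1 was at least 5.76-fold higher in sgXIST7, against 3 counts per library. The adjusted p-values by edgeR were 0.0011, 2.8e-06 and 0.00012. In hypoxia, 4 were called, beside 4.46% of all genes, with TWIST1 higher by 3.63 ± 0.44 and ZEB2 by 4.41 ± 0.37 on the log2 scale in sgXIST7 (SE, adjusted p = 2.2e-05 and 2.7e-07, edgeR). PRRX1 was 61.9-fold higher, from 113 against 2 counts, with an interval of 16.8 to 518 (adjusted p = 1.9e-05, edgeR). SNAI1 was lower in sgXIST7 by -1.68 ± 0.37 (adjusted p = 0.005, edgeR), a call lost without any sgXIST7 hypoxia library or without sgXIST9 hypoxia replicate 1 or 2 (adjusted p-values from 0.013 to 0.029, edgeR). In normoxia the SNAI1 difference of -1.25 ± 0.36 was not called (adjusted p = 0.041, edgeR), but was without sgCtl hypoxia replicate 3 (adjusted p = 0.0012, edgeR). For SNAI2 and OVOL2 no difference between the clones was called. The difference in normoxia was -0.77 with a 95% confidence interval from -1.78 to 0.24 for SNAI2 and 0.56 with an interval from -0.35 to 1.47 for OVOL2. The remaining XIST of 16.27 to 53.6 CPM in sgXIST9 went with the lower levels of TWIST1, ZEB2 and PRRX1, and the clone and the depth of knockdown cannot be told apart.

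The members called under hypoxia against normoxia were SNAI1 and ZEB2 in sgCtl, and TWIST1 and ZEB2 in sgXIST7, all higher. In sgCtl, SNAI1 rose by 1.95 ± 0.37 and ZEB2 by 1.10 ± 0.22 on the log2 scale (SE, adjusted p = 0.00032 and 0.00061, edgeR), 2 of 8 tested members beside 19.7% of all genes. Without sgCtl hypoxia replicate 3 the ZEB2 value was 0.83, under the fold threshold (adjusted p = 0.0027, edgeR), and the SNAI2 difference, 2.25 ± 0.71 and not called with all libraries (adjusted p = 0.014, edgeR), was 2.75 and called (adjusted p = 3.2e-05, edgeR). In sgXIST7, TWIST1 rose by 1.92 ± 0.37 and ZEB2 by 1.2 ± 0.26 (adjusted p = 0.00027 and 0.00084, edgeR), beside 27.3% of all genes. PRRX1 was higher without passing by 1.23 ± 0.40 in sgXIST7 (adjusted p = 0.016, edgeR) and by 1.30 ± 0.62 in sgCtl (adjusted p = 0.091, edgeR). TWIST1 was also higher in sgCtl, by 0.85 ± 0.32, and not called (adjusted p = 0.033, edgeR). OVOL2 was lower in sgXIST7 by -0.99 ± 0.45 and not called (adjusted p = 0.064, edgeR), though its hypoxia and normoxia libraries did not overlap. In sgXIST9, 0 members were called by edgeR or by DESeq2, beside 23.3% of all genes, and 2, TWIST1 and TWIST2, had an unadjusted p below 0.05 by edgeR, beside 60% of all genes. There, ZEB2 had 15 counts in hypoxia against 5 in normoxia, a ratio of 2.93 with an exact 95% counting interval of 1.01 to 10.3, and TWIST1 had 11 against 3, a ratio of 3.58 with an interval of 0.945 to 20. The share of members called was near or below that of all genes in each clone.

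**Figure D3:**
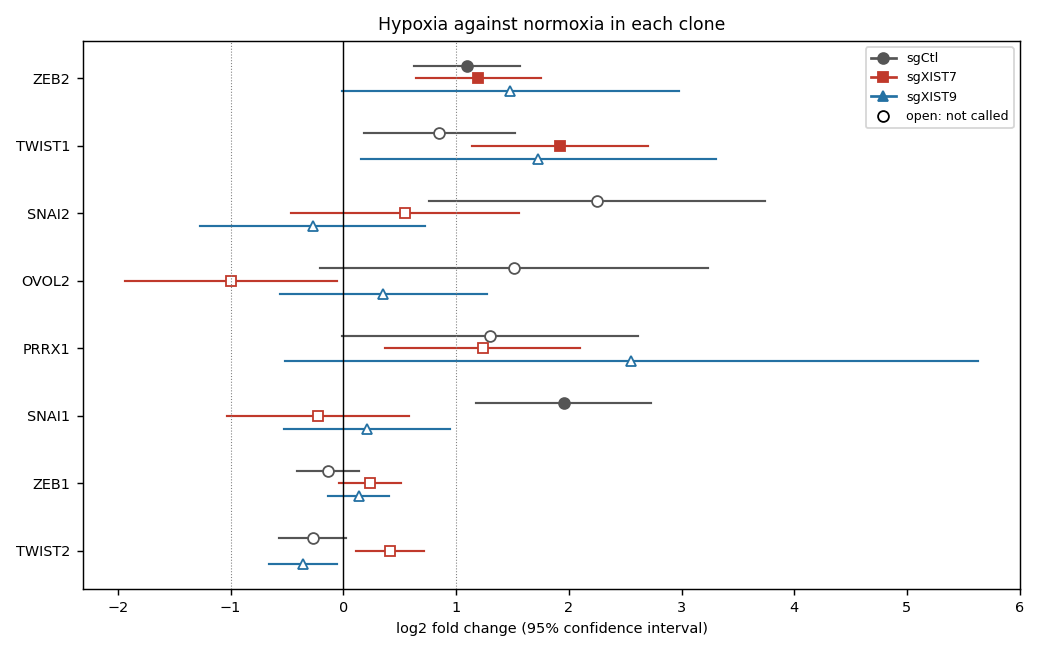
Log2 fold changes of the 8 tested members in hypoxia against normoxia in each clone, with 95% confidence intervals from the edgeR fit (3 libraries per group). Filled symbols were called, and dotted lines mark -1 and 1. ZEB2 lies at 1.10 in sgCtl and 1.2 in sgXIST7, SNAI1 at 1.95 in sgCtl against -0.23 and 0.21 in the KD clones, and ZEB1 and TWIST2 lie within 1 of 0.

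Whether the response to hypoxia differed between a KD clone and sgCtl was tested with the interaction term. With all libraries, 0 members were called by edgeR in sgXIST7, beside 1.52% of all genes, and 0 in sgXIST9, beside 1.01%. At an unadjusted p below 0.05 by edgeR there were 4 members in sgXIST7, SNAI1, TWIST1, TWIST2 and OVOL2, beside 26.7% of all genes. In sgXIST9 there were 2, SNAI1 and SNAI2, beside 21.5%. DESeq2 called 1 in sgXIST7, SNAI1, and 0 in sgXIST9. In sgXIST7 the OVOL2 difference was -2.51 ± 0.93 on the log2 scale (SE, adjusted p = 0.094, edgeR). That for TWIST2 was 0.68 ± 0.20 (adjusted p = 0.043, edgeR). OVOL2 was called in sgXIST7 without the 3 hypoxia libraries of replicate 3 (-2.90, adjusted p = 0.0083, edgeR). For SNAI1 the response was lower than in sgCtl by -2.18 ± 0.53 on the log2 scale in sgXIST7 (SE, adjusted p = 0.019, edgeR) and by -1.74 ± 0.50 in sgXIST9 (adjusted p = 0.054, edgeR). For SNAI2 it was lower by -1.70 ± 0.86 in sgXIST7 and by -2.52 ± 0.85 in sgXIST9 (adjusted p = 0.22 and 0.093, edgeR). These calls turn on sgCtl hypoxia replicate 3. Without that library, SNAI1 differed by -2.57 in sgXIST7 and by -2.13 in sgXIST9 (adjusted p = 0.00014 and 5e-04, edgeR), and SNAI2 by -2.20 and -3.02 (adjusted p = 0.0045 and 0.00071, edgeR), so that 2 members were called in each clone, beside 7.83% and 4.74% of all genes in that fit. The difference for ZEB2 was 0.10 with a 95% confidence interval from -0.61 to 0.81 in sgXIST7, and for TWIST1 it was 1.07 with an interval from 0.05 to 2.09 (adjusted p = 0.17, edgeR).

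The genes whose levels followed each member most closely over the 18 libraries were found by the correlation of log2 CPM. It is a description, since all points come from the cells of 3 guides in 2 oxygen conditions. ZEB2 was followed by GNA14 (Pearson r = 0.978), AHR (0.976) and PTPRM (0.976). TWIST1 was followed by FAM110B (0.979), RND3 (0.97) and ARHGAP42 (0.969). SNAI2 was followed by RCAN1 (0.976), KIFC3 (0.965) and THSD1 (0.95), and OVOL2 by SPAG1 (0.967), THSD1 (0.966) and SPECC1 (0.961), so that THSD1 stood in both lists. PRRX1 was followed by RUNX1 (0.951), NECTIN3 (0.942) and DLGAP1-AS3 (0.932). SNAI1 was followed by KLHL15 (0.912), ATG4D (0.908) and NRN1 (0.889). TWIST2 was followed by FOSL1 (0.926), RAP2B (0.879) and PTMA (0.865), and ZEB1 by BCRP2 (0.851), FAM71D (0.82) and DMRT3 (0.815).

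Genes around the members were counted in lists written by role. The lists were chosen with earlier results of these data known. Some of their genes, such as COL1A2, passed the filter mainly through the groups where they are high. Shares of a list above that of all genes thus describe selected sets and support nothing by themselves. Of 20 other EMT-associated factors and helix-loop-helix partners, 15 were tested. In normoxia 4 were called higher, ID1, ID2, ID3 and ID4, and 2 lower, TBX3 and SOX9, in each of sgXIST7 and sgXIST9, 40% of those tested beside 7.76% and 7.7% of all genes. The ID proteins bind E proteins, the partners of TWIST, and keep them off DNA. ID4 was at 4.85 ± 3.81 CPM in sgCtl, 43.8 ± 18.9 CPM in sgXIST7 and 140.8 ± 6.82 CPM in sgXIST9 (SD, n = 3), and ID2 rose by 3.29 ± 0.46 and 4.04 ± 0.46 on the log2 scale (SE, adjusted p = 4.3e-05 and 5.3e-06, edgeR). SOX9, a stem-cell factor, changed by -4.93 ± 0.55 in sgXIST7 and by -5.87 ± 0.61 in sgXIST9 (adjusted p = 3.7e-06 and 1.6e-06, edgeR). TBX3 had 78 counts in sgCtl normoxia against 0 in sgXIST7 and 1 in sgXIST9. The median over the 15 tested was -0.19 in sgXIST7 and 0.07 in sgXIST9, beside -0.01 and -0.02 over all genes. TCF3 and TCF12, the E proteins themselves, were not called in either clone. In hypoxia, 2 were called higher and 4 lower in sgXIST7, LEF1 among the lower by -2.87 ± 0.48 (adjusted p = 0.00016, edgeR), and 4 higher and 2 lower in sgXIST9. That is 40% of those tested in each clone, beside 14% and 9.53% of all genes.

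Of the 30 epithelial junction and keratin genes, 17 were tested. In normoxia, 5 were called higher and 0 lower in sgXIST7, and 4 higher and 0 lower in sgXIST9, 29.4% and 23.5% of those tested beside 7.76% and 7.7% of all genes. At an adjusted p below 0.01 with no fold threshold, 8 and 7 of the 17 genes passed, where 13.5% and 13.1% of all tested genes did. MARVELD3, a tight junction protein, rose by 3.32 ± 0.34 in sgXIST7 and by 2.85 ± 0.34 in sgXIST9 on the log2 scale (SE, adjusted p = 1.5e-06 and 6.5e-06, edgeR). KRT8, a keratin of simple epithelia, was at 9.13 ± 0.430 CPM in sgCtl, 34.7 ± 7.56 CPM in sgXIST7 and 33.8 ± 2.16 CPM in sgXIST9 (SD, n = 3). PRSS8, a membrane serine protease, rose by 3.22 ± 0.44 and 2.25 ± 0.45 (adjusted p = 3.4e-05 and 0.0015, edgeR). The median over the 17 was 0.66 and 0.71, beside -0.01 and -0.02 over all genes. In hypoxia, 7 were called higher in sgXIST7 and 6 in sgXIST9, with 0 lower, 41.2% and 35.3% of those tested beside 14% and 9.53% of all genes. TJP3, which links tight junctions to actin, fell in hypoxia in sgCtl by 2.05 ± 0.34 (adjusted p = 0.00011, edgeR). Its response was higher than in sgCtl by 2.09 in sgXIST7 and by 2.57 in sgXIST9 (adjusted p = 0.0093 and 0.0038, edgeR). Of all genes, 1.52% and 1.01% were called in these terms, and their dependence on sgCtl hypoxia replicate 3 was not examined for TJP3.

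Of the 25 mesenchymal genes, 19 were tested. In normoxia, 5 were called higher and 2 lower in sgXIST7, and 4 higher and 4 lower in sgXIST9, 36.8% and 42.1% of those tested beside 7.76% and 7.7% of all genes. COL1A2, a chain of type I collagen, went from 0.275 ± 0.173 CPM in sgCtl to 96.7 ± 25.8 CPM in sgXIST7 and 49.2 ± 15.2 CPM in sgXIST9 (SD, n = 3). ACTA2, smooth muscle actin, rose by 3.05 ± 0.35 in sgXIST7 on the log2 scale (SE, adjusted p = 5e-06, edgeR). TNC, a matrix glycoprotein, had 83 counts in sgCtl normoxia against 1 in sgXIST7 and 0 in sgXIST9. FN1, fibronectin, fell by 2.52 ± 0.30 in sgXIST9 (adjusted p = 8.8e-06, edgeR). VIM, the mesenchymal intermediate filament, was at 3480 ± 195.0 CPM in sgCtl, 5614 ± 89.5 CPM in sgXIST7 and 5427 ± 51.5 CPM in sgXIST9 in normoxia and was not called there, and in hypoxia it was higher than in sgCtl by 1.22 ± 0.17 in sgXIST7 on the log2 scale (SE, adjusted p = 2.9e-05, edgeR). The median was 0.69 in sgXIST7 and -0.48 in sgXIST9, on opposite sides of 0. In hypoxia, 8 were called higher and 1 lower in sgXIST7, and 4 higher and 1 lower in sgXIST9. These are 47.4% and 26.3% of those tested, beside 14% and 9.53% of all genes. Under hypoxia against normoxia, 3 were called higher in sgCtl and 5 in each KD clone, with 0 lower, which is 15.8%, 26.3% and 26.3% of those tested beside 19.7%, 27.3% and 23.3% of all genes and so near the background. The count in sgCtl was 5 without the hypoxia libraries of replicate 3, where 23.4% of all genes were called. FBN1, fibrillin-1, rose by 5.20 ± 0.44 in sgXIST9 (adjusted p = 5.3e-08, edgeR). Its response was higher than that of sgCtl by 4.32, and that of FN1 by 2.05 (adjusted p = 0.0014 and 0.0074, edgeR). For both genes, dependence on sgCtl hypoxia replicate 3 was not examined.

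**Figure D4:**
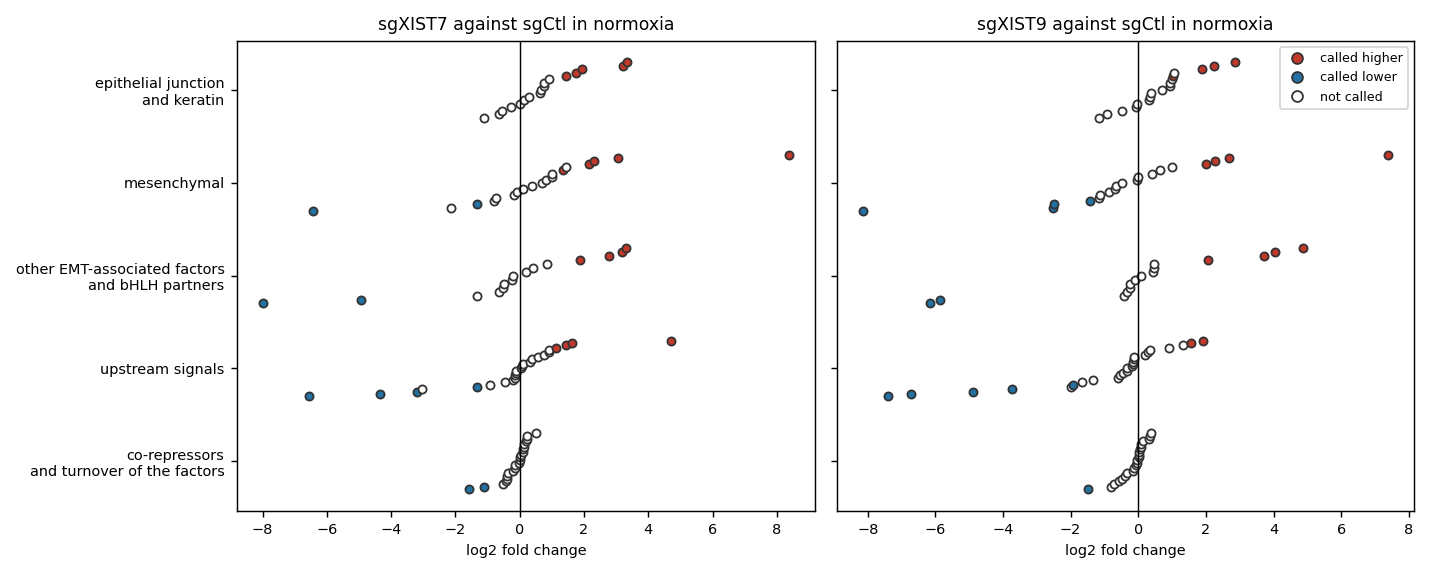
Log2 fold changes of each tested gene in 5 lists, for sgXIST7 (left) and sgXIST9 (right) against sgCtl in normoxia, with points spread vertically within a list for visibility. Called genes of the epithelial list all lie to the right, whereas the lists of other EMT factors, mesenchymal genes and upstream signals hold called genes on both sides.

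Upstream signals and partners were counted in the same way. Of 25 tested genes of TGF-beta, Notch, receptor kinase and hypoxia signalling, 4 were called higher and 4 lower in sgXIST7 in normoxia, and 2 higher and 5 lower in sgXIST9, 32% and 28% beside 7.76% and 7.7% of all genes. TGFB2, a ligand that induces EMT, had 347 counts in sgCtl normoxia against 5 and 4 in the KD clones, and INHBA, the activin A subunit, had 302 against 21 and 2. BMP7, a ligand known to oppose TGF-beta, was at 21.4 ± 2.66 CPM in sgCtl, 2.36 ± 0.356 CPM in sgXIST7 and 0.730 ± 0.313 CPM in sgXIST9. TGFBR2, a receptor of TGF-beta, went in opposite directions, from 0.551 ± 0.215 CPM in sgCtl to 14.2 ± 1.06 CPM in sgXIST7, and with 2 counts in sgXIST9. This is the pattern of clones seen for PRRX1. Of the 22 co-repressors and turnover factors, all were tested, and 2 were called in sgXIST7 and 1 in sgXIST9 in normoxia, 9.09% and 4.55% beside 7.76% and 7.7% of all genes. EZH2, the methyltransferase of Polycomb, fell by 1.57 ± 0.19 in sgXIST7 (SE, adjusted p = 1.1e-05, edgeR), and AJUBA, a partner of Snail, fell by 1.10 ± 0.16 and 1.48 ± 0.16 in sgXIST7 and sgXIST9 (adjusted p = 7.7e-05 and 3.4e-06, edgeR). Under hypoxia against normoxia, JAG1, a Notch ligand, had 183 counts in sgCtl hypoxia against 8 in normoxia, 46 against 1 in sgXIST7 and 83 against 3 in sgXIST9. EPAS1, the hypoxia-inducible factor 2 alpha, rose in sgCtl by 2.29 ± 0.21 (adjusted p = 2.2e-07, edgeR) and in sgXIST7 by 2.93 ± 0.20 (adjusted p = 3.8e-09, edgeR).

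Among other epithelial regulators, 6 of 15 were tested. In normoxia, 1 was called higher in sgXIST7 and 1 lower in sgXIST9, 16.7% each beside 7.76% and 7.7% of all genes. In hypoxia, 1 was called higher and 2 lower in sgXIST7, 50% beside 14% of all genes. In sgXIST9, 1 was called higher and 3 lower, 66.7% beside 9.53%. The median log2 fold changes in hypoxia were -1.17 and -1.28, beside -0.02 and -0.01 over all genes, unlike the rise of the junction and keratin genes. ELF3, an epithelial ETS factor, rose in sgXIST7 in normoxia by 3.04 ± 0.72 on the log2 scale (SE, adjusted p = 0.0048, edgeR), and FOXA1 fell in sgXIST9 by 1.92 ± 0.36 (adjusted p = 0.00077, edgeR). Under hypoxia in sgCtl, KLF4, KLF5 and GRHL1 rose by 2.95 ± 0.44, 2.47 ± 0.37 and 1.60 ± 0.41 (adjusted p = 3.6e-05, 3.2e-05 and 0.0037, edgeR). In hypoxia GRHL1 was lower than in sgCtl by -2.44 ± 0.43 in sgXIST7 and -1.69 ± 0.40 in sgXIST9 (adjusted p = 0.00029 and 0.0041, edgeR). For the miR-200 family, 2 of 7 transcripts were tested. MIR200CHG, the host transcript of miR-200c and miR-141, had 48 to 161 counts in every library. It was called in 1 comparison, higher in sgXIST9 than in sgCtl in hypoxia by 1.05 ± 0.24 (adjusted p = 0.0029, edgeR). MIR200CHG is also in the list of other epithelial regulators, where it was the 1 gene called higher in that comparison. In normoxia it was at 4.71 ± 0.631 CPM in sgCtl, 4.38 ± 0.610 CPM in sgXIST7 and 4.79 ± 0.306 CPM in sgXIST9. The precursors of miR-200a, miR-200b and miR-429 had 0 counts in all 18 libraries, while that of miR-141 had 1 to 20 counts.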

How the data were processed

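RNA from OVCAR3-KRAB clones (sgCtl, sgXIST7, sgXIST9, normoxia or 1% oxygen for 24 h, n = 3) had been depleted of rRNA, made into stranded libraries and sequenced as paired ends. The authors used Trimmomatic for trimming, HISAT2 for alignment to hg38 and featureCounts for counting, and compared groups with DESeq2. The deposited values are the authors' raw counts per gene, without normalization. Of 28279 lines, 2 that formed a broken record were left out, leaving 28277 genes. Total counts ranged from 11794375 to 24906936. The study calls the replicates of its RNA sequencing biological, but separate cultures are not described, so p-values measure the spread between these libraries.

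Genes were kept by filterByExpr (minimum count 10, minimum total 15), which left 14938. A quasi-likelihood model of the 6 groups was fitted in edgeR 4.0.16 under R 4.3.3, with TMM scaling, robust estimation and a prior count of 0.125. P-values were adjusted by Benjamini-Hochberg over all tested genes, and the call needed an adjusted p below 0.01 with a log2 change beyond 1. The scripts were tested on simulated data. The alternatives were DESeq2 1.42.0, other scaling, filters and thresholds, fits of only the groups compared, a replicate block, and left-out libraries. Count ratios carry exact 95% Poisson intervals that cover counting error only, and 3 counts per library was the limit for a group at 0.

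Same-numbered libraries deviated together, with every correlation above 0.1, in 2 of 9 comparisons. These were sgXIST7 against sgCtl in normoxia (0.148 to 0.379) and sgXIST9 against sgCtl in hypoxia (0.197 to 0.566). Unlike-numbered libraries reached 0.133 and 0.283 there, so pairing by number is possible but not settled. The planned fit leaves it out, and the replicate block was run as an alternative. The members and gene lists were chosen with earlier results of these data known. All members are named. From each list at most 4 called genes per comparison with the largest change are named, the 3 genes most alike to each tested member, and XIST as a check, and any other gene is named as background or after its values were seen.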

Additional observations from a re-analysis of the deposited data

Results flagged for a closer look

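The KD effects of the guides differed for several members, by the direct test of sgXIST7 against sgXIST9 with edgeR. In normoxia the log2 differences were 3.44 for TWIST1, 4.69 for ZEB2 and 7.06 for PRRX1, the last fitted against a group at 0 counts and so dependent on the prior count. In hypoxia they were 3.63 for TWIST1, 4.41 for ZEB2, 5.74 for PRRX1 and -1.68 for SNAI1.

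The interaction term was called for TJP3, at 2.09 in sgXIST7 and 2.57 in sgXIST9. In sgXIST9 it was also called for FBN1 at 4.32, FN1 at 2.05 and BMP7 at 2.90. Of all tested genes, 1.52% were called in sgXIST7 and 1.01% in sgXIST9. BMP7 was low in sgXIST9 in normoxia. Whether these calls depend on sgCtl hypoxia replicate 3 was not examined. Groups of 3 were too small for a test of single outlying libraries.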

How the results depend on the processing

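Of 30 calls of members over the 11 comparisons, 22 stayed on the same side under all alternatives run for them, 8 were lost under at least 1, and 0 changed sign. A further 14 differences that were not called passed under some alternative. Among 1610 values of members not called under the alternatives, 16 had the opposite sign. The looser thresholds reuse the planned fit, so no call can be lost and no sign can change under them. In a direct comparison, most left-out libraries lie outside the groups compared and act only through the shared fit. The number of members called in sgXIST9 against sgCtl in hypoxia was 2, and in hypoxia against normoxia in sgCtl 1, when only the groups compared were fitted, against 4 and 2. In the first, OVOL2 was lost (adjusted p = 0.034, edgeR) and PRRX1 did not pass the filter and was not tested. In the second, SNAI1 was lost (adjusted p = 0.011, edgeR). For the difference of the hypoxia response in sgXIST7, 0 members were called, against 1 by DESeq2 and 1 at an adjusted p below 0.05. Without the 3 hypoxia libraries of replicate 3 there were 3, SNAI1, SNAI2 and OVOL2. In sgXIST9 that fit gave 2 against 0. The cause was not tested. With 1 library left out, the counts ranged from 0 to 2 in both of these differences, with 2 reached without sgCtl hypoxia replicate 3. A mean CPM of at least 1 removes PRRX1 from the test.

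The replicate block gave 5 members called in sgXIST9 against sgCtl in hypoxia, against 4, by adding SNAI2 (adjusted p = 0.0095, edgeR), and changed no other call of a member. Same-numbered libraries correlated from -0.068 to 0.566 over the 9 comparisons. Depth limits PRRX1, OVOL2, SNAI2 in sgCtl, and TWIST1 and ZEB2 in sgXIST9, where a few counts per library set the ratio, and GRHL2 and ESRP1 were below what could be tested.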
